A study of Homo sapiens with 8 samples.

Results

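The genes described here are 9 components of the TRAIL and death receptor pathway, chosen by their symbols among the 37526 gene names listed for all 8 libraries. They are the ligand TNFSF10 (TRAIL), the receptors TNFRSF10A, TNFRSF10B, FAS, TNFRSF1A and TNFRSF1B, and the receptor complex genes FADD, CFLAR and CASP8. Death receptors are cell-surface proteins of the tumour necrosis factor (TNF) receptor family with an intracellular death domain. When TRAIL binds TNFRSF10A or TNFRSF10B, or when FAS ligand binds FAS, the adaptor FADD is recruited and brings in the initiator protease CASP8, which can start apoptosis, while CFLAR (c-FLIP) competes with CASP8 for the complex. In acute promyelocytic leukaemia (APL), the differentiating agent all-trans retinoic acid (ATRA) is known for inducing TRAIL.

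The samples were RNA of NB4 cells, a line derived from APL that carries the PML/RARα fusion, after stable lentiviral transduction with a control vector (scramble) or with an shRNA against KDM3B (shKDM3B), a demethylase of histone H3 lysine 9. Each was measured without ATRA and after 1 µM ATRA (scramble+ATRA and shKDM3B+ATRA), with 2 replicates in each of the 4 conditions. The labels call the control an empty vector whereas the methods give a scrambled hairpin, they give the time as 24 or 48 h without assigning a time to a library, and they do not say which of the hairpins was sequenced. Nothing in the labels ties replicates to separate cultures, so the p-values measure the spread between these libraries, which may be technical.

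The libraries held from 9708739 to 33017787 read pairs assigned to genes. Levels are given as CPM, read counts scaled to the total of the library after TMM scaling, a correction for differences in RNA composition. KDM3B stood at 187 and 188 CPM in scramble cells and 76.3 and 86.2 CPM in shKDM3B cells, and with ATRA at 196 and 121 CPM in scramble cells and 52.5 and 57.4 CPM in shKDM3B cells, with no overlap in either pair. The ATRA-induced gene TGM2, with at most 1 count in any untreated library, was at least 39706-fold higher in scramble+ATRA cells and at least 19539-fold higher in shKDM3B+ATRA cells, against a floor of 3 counts per library. Read pairs outside genes made up 8.49 to 9.62% of the untreated libraries and 9.36% of scramble+ATRA replicate 1, but 50.02% of scramble+ATRA replicate 2 and 51.0 and 51.4% of the shKDM3B+ATRA libraries. Calls of the 9 genes that involve scramble+ATRA cells were therefore also examined without single scramble+ATRA libraries, and for shKDM3B+ATRA against shKDM3B this split and the treatment cannot be told apart. The 8 promyelocyte and myeloid markers summed to 4658 to 5772 CPM in scramble, 8717 to 9927 in shKDM3B, 1253 to 1614 in scramble+ATRA and 2721 to 3586 CPM in shKDM3B+ATRA libraries. The highest of them by CPM in every library was the granule enzyme MPO, which was called higher in the knockdown (log2 0.89 without and 1.99 with ATRA) and lower with ATRA (-2.81 in scramble and -1.69 in shKDM3B cells), whereas ELANE, AZU1 and PRTN3 did not exceed 1.49 CPM. CTSG, another granule gene, stood at 105 to 149 CPM in untreated and 1.71 to 4.11 CPM in treated libraries, and fell with ATRA by log2 values of -5.04 in scramble and -6.16 in shKDM3B cells. The receptor gene CSF3R and the myeloid factor SPI1 were called higher with ATRA (1.999 and 1.39 in scramble, 1.48 and 0.92 in shKDM3B cells). CSF3R was called lower in the knockdown with ATRA (-0.89), and CD33 was not called in any of the 4 comparisons. The SPI1 call in scramble cells was lost without scramble replicate 1 (1.21), and the CSF3R knockdown call without shKDM3B+ATRA replicate 1 (-0.88). CD33 was called higher with ATRA in scramble cells without scramble+ATRA replicate 2 (0.69). In shKDM3B cells it was called higher without shKDM3B replicate 2 (0.62). ITGAM, a marker of granulocytic differentiation, was called higher with ATRA (3.02 and 3.12) and lower in the knockdown (-0.90 without and -0.82 with ATRA). The call of ITGAM in the knockdown with ATRA was lost without scramble+ATRA replicate 1 (-0.54) or without shKDM3B+ATRA replicate 1 (-0.80) or replicate 2 (-0.83). Of markers of T and NK, B and epithelial cells, 3 of 6, 1 of 3 and 3 of 4 were under 1 CPM in every library. The epithelial marker above that level was EPCAM, at 13.1 to 18.9 CPM. The summed T and NK markers were 44.5 to 54.3 CPM in scramble, 31.0 to 36.1 in shKDM3B, 35.5 to 50.7 in scramble+ATRA and 16.9 to 25.4 in shKDM3B+ATRA libraries, mostly NKG7, which was called lower in both knockdown comparisons (-0.89 and -1.12), the latter call being lost without shKDM3B+ATRA replicate 1 (-0.84) or replicate 2 (-1.46). NCAM1, of the same list, was called lower with ATRA (-3.08 in scramble and -2.44 in shKDM3B cells) and was called higher in the averaged knockdown contrast (0.77), a call that was kept in only 2 of the 8 fits without 1 library. The B cell markers summed to 5.02 to 5.12 CPM in scramble and 3.65 to 4.51 in shKDM3B libraries, and with ATRA to 21.0 to 24.2 in scramble and 13.6 to 16.2 CPM in shKDM3B libraries, mostly CD79A. The part of these markers in the results was not tested.

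Compared per length of the Ensembl canonical transcript, the receptor TNFRSF1A was the most abundant of the 9 transcripts in scramble cells, at 64.2 ± 14.1 CPM per kb (SD, n = 2). FADD followed at 29.2 ± 0.985 and CASP8 at 27.1 ± 7.39 CPM per kb, 2 neighbours whose libraries overlapped. Next came the TRAIL receptors TNFRSF10B (12.3 ± 0.712) and TNFRSF10A (7.08 ± 0.367), CFLAR (5.09 ± 0.0642), TNFSF10 (3.78 ± 0.314), FAS (2.17 ± 0.292) and TNFRSF1B (0.244 ± 0.0397 CPM per kb), each without overlap with its neighbours. TNFRSF1B rested on 20 and 19 counts. The order changed with both perturbations. TNFSF10 stood above CFLAR in shKDM3B cells (6.21 ± 0.507 against 5.66 ± 0.0323 CPM per kb), and CASP8 stood above FADD in scramble+ATRA cells (50.9 ± 6.08 against 27.9 ± 0.175).

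**Figure D1:**
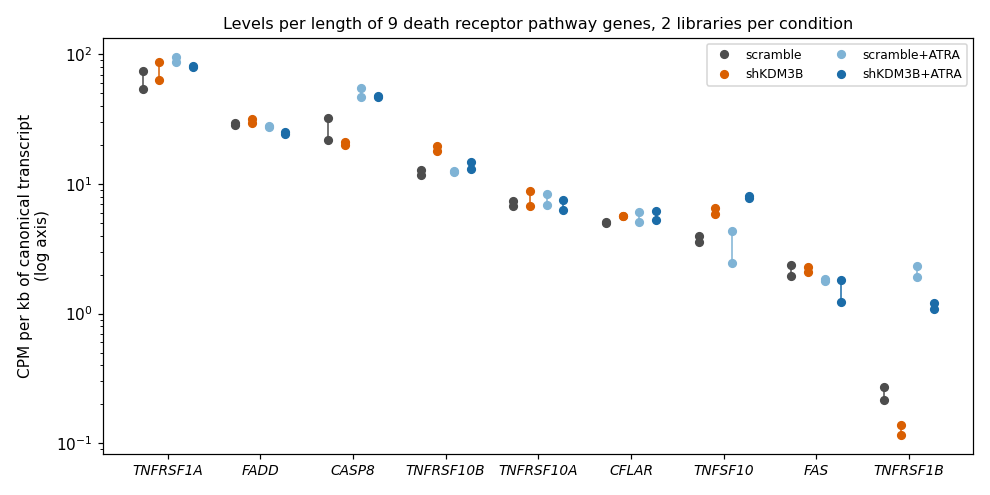
Levels of the 9 genes in CPM per kb of canonical transcript (log axis), with the 2 libraries of each condition joined by a line and conditions marked by colour. The genes are ordered by their mean in scramble cells, from TNFRSF1A at 64.2 to TNFRSF1B at 0.244 CPM per kb, and TNFRSF1B is the gene whose treated libraries lie farthest from its untreated ones.

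Pairs of conditions were compared with edgeR's quasi-likelihood test over all genes, and calls followed the rule of the study, an unadjusted P under 0.05 together with a change of at least 1.5-fold. All 9 genes passed the low-count filter in each of the 6 tests. Without ATRA, 2 of the 9 genes were called between shKDM3B and scramble cells, TNFSF10 and TNFRSF10B, both higher, where 7.01% of the 13855 genes tested were called. With ATRA, 2 of 9 were called between shKDM3B+ATRA and scramble+ATRA cells, TNFSF10 higher and TNFRSF1B lower, against 6.79% of 14281 genes. That share was 17.0% and 36.4% without scramble+ATRA replicate 1 or 2, and 0.889% and 1.88% without shKDM3B+ATRA replicate 1 or 2. CASP8 and TNFRSF1B were called higher with ATRA in scramble cells, where 25.9% of 12429 genes were called. They were called higher again in shKDM3B cells, where 42.2% of 12756 genes were called. The median log2 fold change of the 9 genes in these comparisons was 0.15, -0.14, 0.15 and 0.07, beside 0.00, 0.03, 0.02 and 0.04 for all genes tested. In these bulk samples, a change in the share of cells that express a gene and a change in RNA per cell cannot be told apart.

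**Figure D2:**
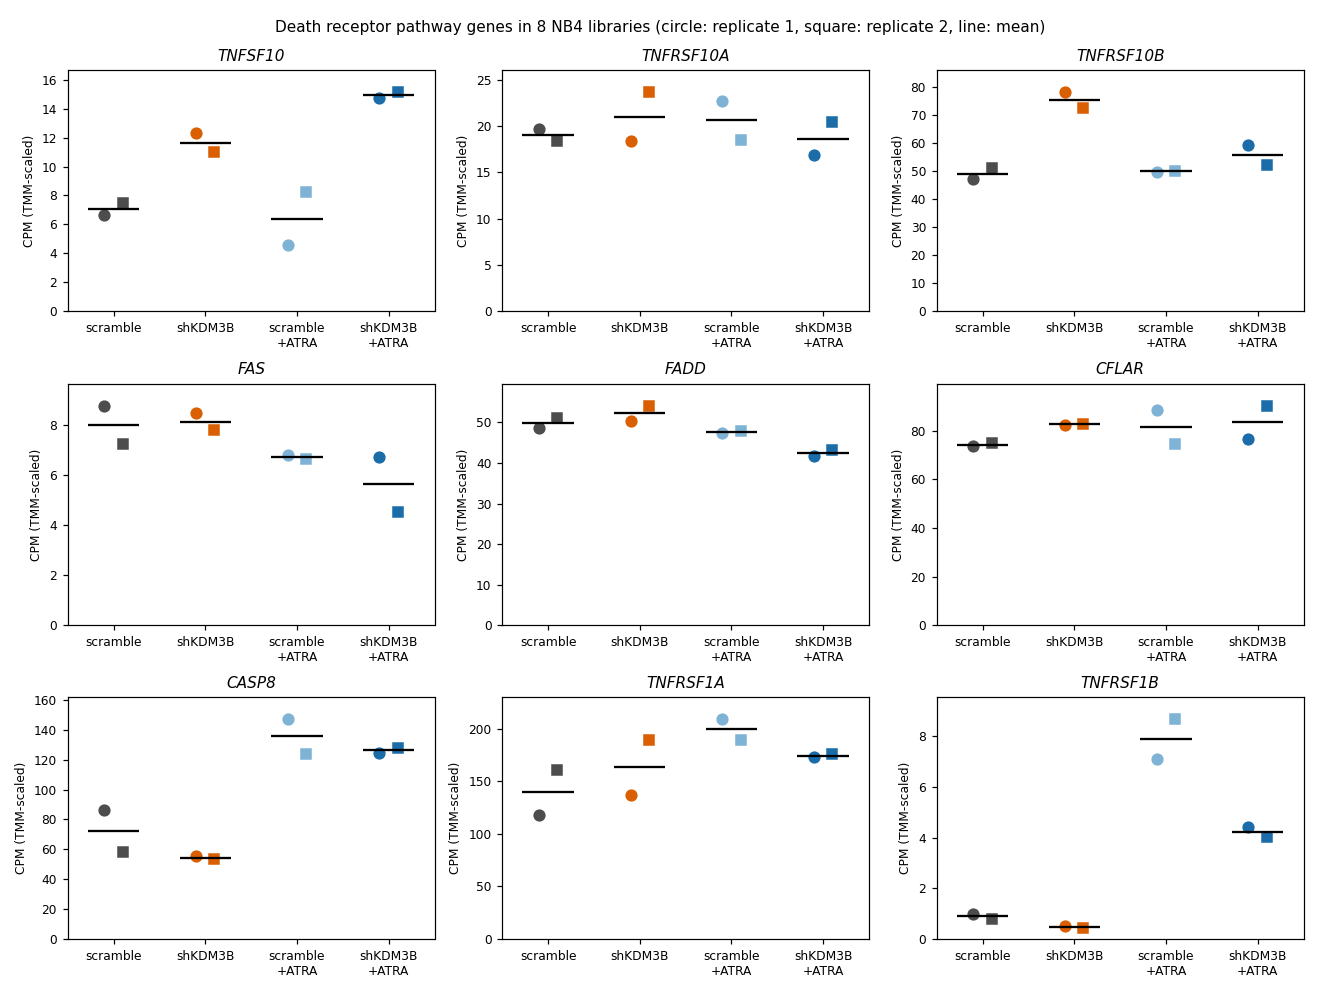
CPM of each of the 9 genes in the 8 libraries, with circles for replicate 1, squares for replicate 2 and a line at the mean of each condition. TNFSF10 lies at 4.60 to 8.21 CPM in the 4 scramble libraries and at 11.0 to 15.2 CPM in the 4 shKDM3B libraries. CASP8 and TNFRSF1B separate the treated from the untreated libraries, lying higher with ATRA. FAS and FADD separate them by less and lie lower with ATRA, without a call.

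TNFSF10 encodes TRAIL and lies on the minus strand of chromosome 3 (hg38, chr3:172505508-172523475). Its level was 6.68 and 7.51 CPM in scramble cells and 12.3 and 11.0 CPM in shKDM3B cells. Both shKDM3B libraries were thus above both scramble libraries, and the difference was 1.64-fold (log2 fold change 0.71 ± 0.23 SE, adjusted p = 0.320). With ATRA the levels were 4.60 and 8.21 CPM in scramble cells and 14.7 and 15.2 CPM in shKDM3B cells, again without overlap, but with scramble+ATRA libraries far apart. The difference was 2.35-fold (log2 1.23 ± 0.38, adjusted p = 0.506). Averaged over the treatments in a fit of all 8 libraries, TNFSF10 was 1.96-fold higher in the knockdown (log2 0.97 ± 0.22, adjusted p = 0.0962), in a contrast in which 7.33% of 13528 genes were called. Each of these adjusted p-values, computed by the Benjamini-Hochberg method over all genes tested, was above 0.05.

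The call for TNFSF10 in untreated cells was lost without scramble replicate 1 (log2 0.63) and without shKDM3B replicate 1 (log2 0.63). The call with ATRA was lost without shKDM3B+ATRA replicate 1 (log2 1.25) or replicate 2 (log2 1.21), and was kept without scramble+ATRA replicate 1 (log2 0.88), which leaves only libraries with about equal shares outside genes, and without scramble+ATRA replicate 2 (log2 1.70). The averaged contrast was called with each of the 8 libraries left out in turn, at log2 values from 0.78 to 1.20.

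The response of TNFSF10 to ATRA itself was not called in either population. In scramble cells the log2 fold change was -0.12 ± 0.40 (adjusted p = 0.882), with a 95% interval from -1.05 to 0.82, and the scramble+ATRA libraries lay on either side of the untreated ones. Its sign depended on the library kept, at -0.62 without scramble+ATRA replicate 2 and 0.24 without replicate 1. In shKDM3B cells it was 0.41 ± 0.19 (adjusted p = 0.104). The difference between these responses was 0.52 ± 0.43 on the log2 scale (interaction test, adjusted p = 1.00, 95% interval -0.50 to 1.53) and was called only without scramble+ATRA replicate 2 (0.98).

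The TRAIL receptors lie in a cluster of related genes on chromosome 8, TNFRSF10A at chr8:23190452-23225102 and TNFRSF10B at chr8:23020133-23069031, both on the minus strand. Reads that fit more than one of these paralogs may have been split or dropped by the counting, so their values are uncertain to that extent. TNFRSF10B (DR5) was at 47.0 and 51.0 CPM in scramble cells and at 78.3 and 72.5 CPM in shKDM3B cells. The groups did not overlap and differed by 1.54-fold (log2 0.62 ± 0.15, adjusted p = 0.193), just past the 1.5-fold threshold. The fold fell under it without scramble replicate 1 (log2 0.56) or shKDM3B replicate 1 (log2 0.57). With ATRA, TNFRSF10B was at 49.6 and 50.2 CPM in scramble cells and at 59.2 and 52.2 CPM in shKDM3B cells, a log2 difference of 0.16 ± 0.13 (adjusted p = 0.718) with a 95% interval from -0.22 to 0.55.

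ATRA left TNFRSF10B near its untreated level in scramble cells (log2 0.06 ± 0.21, adjusted p = 0.885, 95% interval -0.43 to 0.55). In shKDM3B cells it was lower by a log2 value of -0.38 ± 0.14 (adjusted p = 0.0418), past the adjusted threshold but under 1.5-fold, and DESeq2 gave an adjusted p = 0.0515. At that threshold, 3 of the 9 genes passed in shKDM3B cells, the others being CASP8 and TNFRSF1B, where 50% of all genes tested did, and 2 passed in DESeq2, where 44.6% did. The difference between the responses was under 1.5-fold and was not called (log2 -0.46 ± 0.19, adjusted p = 1.00). TNFRSF10A (DR4) was at 19.7 and 18.3 CPM in scramble, 18.3 and 23.7 in shKDM3B, 22.7 and 18.5 in scramble+ATRA and 16.9 and 20.4 CPM in shKDM3B+ATRA cells. Its libraries overlapped in all 4 comparisons, and the log2 values ran from -0.14 to 0.15 with intervals that reached at most 0.72 and at least -0.84.

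FAS, the receptor for FAS ligand (chr10:88953813-89029605), was at 8.79 and 7.26 CPM in scramble and 8.48 and 7.79 CPM in shKDM3B cells, and at 6.80 and 6.64 CPM in scramble+ATRA and 6.74 and 4.52 CPM in shKDM3B+ATRA cells. The treated libraries were below the untreated ones, yet neither ATRA comparison was called (log2 -0.22 ± 0.33, adjusted p = 0.712 in scramble and -0.48 ± 0.28, adjusted p = 0.177 in shKDM3B cells). With 45 to 254 counts per library, FAS allowed only wide intervals, from -1.23 to 0.73 for the knockdown with ATRA.

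The receptors for TNF itself behaved unlike each other. TNFRSF1A (TNFR1), which has a death domain and lies at chr12:6328757-6342114, was at 118 and 161 CPM in scramble, 137 and 190 in shKDM3B, 209 and 190 in scramble+ATRA and 173 and 176 CPM in shKDM3B+ATRA cells. Its rise of 1.46-fold with ATRA in scramble cells passed the unadjusted threshold but stayed under 1.5-fold (log2 0.55 ± 0.23, adjusted p = 0.174), and it was called only without scramble+ATRA replicate 2 (log2 0.59). In shKDM3B cells the treated libraries lay between the untreated ones (log2 0.14 ± 0.16, adjusted p = 0.484).

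TNFRSF1B (TNFR2) lacks a death domain, signals through TRAF proteins and lies at chr1:12166991-12209228. It was at 1.00 and 0.797 CPM in scramble cells and at 7.11 and 8.67 CPM in scramble+ATRA cells, an 8.93-fold rise without overlap (log2 3.16 ± 0.41, adjusted p = 0.0035). In shKDM3B cells it rose 9.28-fold, from 0.514 and 0.430 CPM to 4.42 and 4.02 CPM (log2 3.21 ± 0.37, adjusted p = 9.9e-05). Both rises were called with each library left out. The difference between these rises was not called (interaction log2 0.03 ± 0.36, adjusted p = 1.00, 95% interval -0.82 to 0.88), while both shKDM3B libraries were below both scramble libraries without ATRA and with it.

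The knockdown difference of TNFRSF1B was a log2 value of -0.94 ± 0.49 without ATRA (adjusted p = 0.597), on 10 to 20 counts per library. It was -0.90 ± 0.29 with ATRA, 1.86-fold lower and called (adjusted p = 0.508), on 40 to 116 counts. Averaged over treatments it was -0.91 ± 0.24 (adjusted p = 0.122), called with each of the 8 libraries left out in turn (-0.99 to -0.83). The call with ATRA was lost without shKDM3B+ATRA replicate 1 (-0.96) or replicate 2 (-0.82) and kept at -1.03 without scramble+ATRA replicate 1 and -0.75 without replicate 2. DESeq2 did not make it (-0.89).

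CASP8, the initiator protease of the complex (chr2:201233443-201361836), was at 86.1 and 58.3 CPM in scramble cells and at 147 and 124 CPM in scramble+ATRA cells. It rose 1.92-fold without overlap (log2 0.94 ± 0.25, adjusted p = 0.0521). The call was lost without scramble replicate 2 (log2 0.68) and kept without either scramble+ATRA library (0.82 without replicate 1 and 1.03 without replicate 2). In shKDM3B cells CASP8 rose 2.40-fold, from 55.6 and 53.4 CPM to 125 and 128 CPM (log2 1.26 ± 0.12, adjusted p = 3.3e-05), and it was called with each library left out as well. The treated levels of the populations overlapped, with a knockdown difference of -0.10 ± 0.14 (adjusted p = 0.847). Without ATRA both shKDM3B libraries were below both scramble libraries, at a log2 difference of -0.41 ± 0.20 that was not called (adjusted p = 0.580). It was called only without scramble replicate 2 (-0.65), and leaving out each library in turn gave values from -0.65 to -0.096.

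The partners of CASP8 in the complex differed less. FADD, the adaptor (chr11:70203296-70207390), was at 48.6 and 51.0 CPM in scramble, 50.2 and 54.2 in shKDM3B, 47.4 and 47.9 in scramble+ATRA and 41.8 and 43.1 CPM in shKDM3B+ATRA cells. The shKDM3B+ATRA libraries were the lowest, yet none of its 4 comparisons was called, and the largest log2 value was -0.25 ± 0.14 for ATRA in shKDM3B cells (adjusted p = 0.170). Exons of a gene on the other strand cover 59.2% of the FADD exons, and the strand setting of the counting is not stated, so its counts may include reads from that gene. Exons on the other strand also cover 16.7% of the TNFRSF10A, 10.1% of the CFLAR, 7.52% of the TNFRSF10B and 6.48% of the FAS exons. One of the genes opposite TNFRSF10A, TNFRSF10A-AS1, is listed for the treated libraries alone, so that TNFRSF10A may have been counted unequally with and without ATRA. CFLAR, the competitor of CASP8 (chr2:201116154-201176687), was at 73.7 and 75.0 CPM in scramble, 82.4 and 83.0 in shKDM3B, 88.5 and 74.7 in scramble+ATRA and 76.8 and 90.4 CPM in shKDM3B+ATRA cells. Without ATRA the shKDM3B libraries lay above the scramble ones with no overlap, while the treated libraries overlapped. Its log2 values ran from 0.04 to 0.17 and were not called, with 95% intervals that reached at most 0.65. CASP8 was thus called with ATRA while no change of CFLAR was detectable in these libraries.

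**Figure D3:**
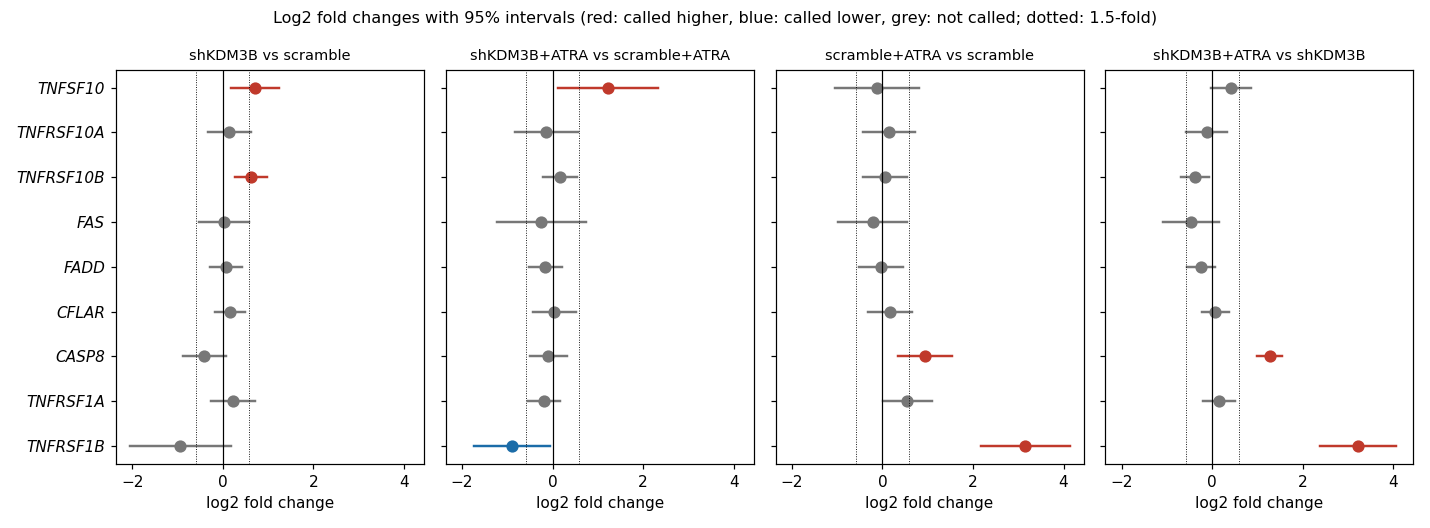
Log2 fold changes of the 9 genes with 95% intervals in the 4 pairwise comparisons, with called genes in red (higher) or blue (lower), genes not called in grey and dotted lines at 1.5-fold. TNFSF10 is called in both knockdown comparisons (0.71 and 1.23), and CASP8 and TNFRSF1B in both ATRA comparisons (0.94 and 1.26 for CASP8, 3.16 and 3.21 for TNFRSF1B).

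At an adjusted p under 0.05, edgeR called 0 of the 9 genes in either knockdown comparison, where it called 3 of 13855 and 0 of 14281 genes (0.0217% and 0%). DESeq2 also called 0 of the 9 in each, where it called 2.21% and 4.15% of the genes it gave an adjusted p, which it did not give TNFRSF1B without ATRA. At an unadjusted P under 0.05 and any fold, both tools had 2 of the 9 genes without ATRA (10.2% of all genes tested in edgeR and 8.68% in DESeq2). With ATRA edgeR had 2 (9.68%) and DESeq2 1 (11.7%). In the averaged contrast edgeR called 0 of the 9 at the adjusted threshold (0.835% of all genes tested) and DESeq2 2 (8.1%). At an unadjusted P under 0.05 and any fold each tool had 3 of the 9 (17.9% of all genes tested in edgeR and 18.2% in DESeq2), in edgeR TNFSF10, TNFRSF1B and TNFRSF10B, the last at 1.31-fold. For the response to ATRA in scramble cells edgeR called 1 of the 9 at the adjusted threshold, TNFRSF1B (12.9% of all genes tested), and DESeq2 called 2, CASP8 and TNFRSF1B (17.5%). Without scramble replicate 1 or 2, edgeR called 0 of all genes at that threshold, with 1578 and 1462 at an unadjusted P under 0.05. In the interaction test 0 of the 9 genes were called, where 3.99% of 13528 genes were.

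Promoter sequences from RefSeq (GRCh38.p14, 250 bases before to 50 bases after each start) were available for 7 of the 9 genes, with 14 start sites. They were searched on both strands for the core bound by interferon regulatory factors such as IRF1, which is GAAA, any 2 bases and GAAA, because TRAIL is known as an interferon-responsive gene and because CASP8 and TNFRSF1B moved together with ATRA. It was found at 3 of the 14 start sites, those of TNFSF10, TNFRSF1B and 1 of the 3 start sites of CASP8, and in 3.57% of 35116 promoters. The motif was chosen with the rises of CASP8 and TNFRSF1B known. Several start sites share a gene, so these counts are not a test of enrichment. Each match lies on the reverse strand, so it reads TTTC, 2 further bases and TTTC in the direction of the gene, and is shown in capitals, 5′ to 3′ along the gene. The first base of the match lies 187 bases before the RefSeq start in TNFSF10, 10 bases before it in TNFRSF1B and 3 bases before it in CASP8. The TNFSF10 sequence stops where GENCODE places the first base of the gene.
TNFSF10, chr3:172523476-172523680, minus strand: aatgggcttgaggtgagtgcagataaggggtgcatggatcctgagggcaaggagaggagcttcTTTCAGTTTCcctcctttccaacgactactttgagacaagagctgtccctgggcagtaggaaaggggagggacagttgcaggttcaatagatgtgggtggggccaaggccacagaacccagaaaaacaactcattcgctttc
TNFRSF1B, chr1:12166741-12166990, plus strand: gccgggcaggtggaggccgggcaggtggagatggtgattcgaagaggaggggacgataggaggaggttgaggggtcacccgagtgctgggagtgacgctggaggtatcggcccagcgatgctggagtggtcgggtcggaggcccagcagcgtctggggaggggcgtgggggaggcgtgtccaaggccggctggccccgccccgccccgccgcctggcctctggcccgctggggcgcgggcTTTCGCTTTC
CASP8, chr2:201233443-201233472, plus strand: gtgctctgagtttttggTTTCTGTTTCacc
These matches are described as letters only and were not tested as binding sites. AGGTCA, the hexamer that retinoic acid receptors bind, was found at 1 of the 14 start sites, in CFLAR, and in 13.8% of all promoters. GGGCGG, the core of Sp1 sites, was found at 8 of the 14 and in 45.0% of all promoters. No match of one motif overlapped a match of another.

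Of 11 factors of the interferon response and their targets, 8 of 11 tested were called higher with ATRA in scramble cells, where 25.9% of all genes tested were called in either direction, and 9 of 10 in shKDM3B cells, where 42.2% were, with 0 lower in either. IRF7, IFIT1 and MX1 were not called in scramble cells, nor IRF7 in shKDM3B cells, and IFIT1 in scramble+ATRA replicate 1 lay between the untreated scramble libraries. IRF1, a transcription factor that binds this core, rose from 47.6 and 30.3 CPM to 283 and 223 CPM in scramble cells (6.65-fold, adjusted p = 0.0016) and from 17.9 and 23.8 CPM to 223 and 228 CPM in shKDM3B cells (11.1-fold, adjusted p = 3.3e-07). The antiviral genes OAS1, IFI6 and IFIT2 rose by log2 values of 3.56, 3.49 and 3.22 in scramble cells and 5.03, 3.96 and 2.18 in shKDM3B cells. In scramble cells OAS1 stood at 4.31 without scramble+ATRA replicate 1 and 1.97 without replicate 2, and IFI6 at 3.97 and 2.74. Exons on the other strand cover 22.9% of the IRF1 exons. The median of the list was 1.90 in scramble and 2.19 in shKDM3B cells. TNFSF10 stood at -0.12 and 0.41, and its relation to these genes was not tested. In the knockdown without ATRA, 3 of 10 were called, beside 7.01% of all genes tested. IRF1 (-0.90 ± 0.26) and IFI6 (-1.24 ± 0.31) were called lower and IFIT2 higher (1.06 ± 0.43), with adjusted p-values from 0.192 to 0.449. DESeq2 gave adjusted p-values of 0.0406 for IRF1 and 0.115 for IFI6, where 2.21% of genes were under 0.05. In that comparison TNFSF10 was called higher (0.71), and a link between it and IRF1 was not tested. In the averaged knockdown contrast 1 of 11 was called, beside 7.33% of all genes tested. It was IFI6, lower, not passing the adjusted threshold in edgeR, while DESeq2 gave a log2 value of -1.01 (adjusted p = 0.0178). The IRF1 call was lost without scramble replicate 1 (-0.53), and the IFIT2 call without scramble replicate 2 (0.70), shKDM3B replicate 1 (1.02) or shKDM3B replicate 2 (1.09), and DESeq2 did not make the IFIT2 call (1.06). In scramble cells the ATRA calls of OAS1 and IRF9 were lost without either untreated library, that of IFIT3 without scramble replicate 2 and that of STAT2 without scramble replicate 1, each staying above 0. In shKDM3B cells that of STAT2 was lost without shKDM3B+ATRA replicate 2 (0.57). With ATRA, 0 of 10 were called in the knockdown, beside 6.79% of all genes tested, and 0 by DESeq2, with 0 at an unadjusted P under 0.05 (9.68%). This count depended on the scramble+ATRA libraries. Without replicate 1, IFI6 (-1.25) and OAS1 (-0.73) were called lower, and without replicate 2, OAS1 (1.56), IFIT1 (1.92) and IFIT3 (0.82) were called higher.

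Among the other ligands, receptors and decoys of the pathway, 5 of 10 passed the filter in scramble cells with and without ATRA. TNF, LTA, LTB and the decoy receptor TNFRSF6B were listed at 0 counts in 8 of 8 libraries and FASLG at 1 count in 1 library. A listed 0 is not read here as absence of the RNA. The death domain receptor TNFRSF21 (DR6) fell with ATRA in scramble cells from 10.9 and 10.4 CPM to 3.13 and 2.58 CPM (log2 -1.86 ± 0.34, adjusted p = 0.0135) and in shKDM3B cells from 12.7 and 12.7 CPM to 2.21 and 2.71 CPM (-2.31 ± 0.26, adjusted p = 8.8e-05). TNFRSF10D, a decoy receptor that binds TRAIL without a working death domain, was called lower with ATRA in shKDM3B cells (-1.30 ± 0.20, adjusted p = 6.7e-04). TNFRSF25 (DR3) was the member of this list called in the knockdown, lower without ATRA (-1.14 ± 0.47, adjusted p = 0.454) and in the averaged contrast (-1.26 ± 0.42, adjusted p = 0.188), at no more than 2.46 CPM. The call without ATRA was lost without scramble replicate 1 (-0.99) or shKDM3B replicate 1 (-0.69) and was not made by DESeq2 (-1.17), and the averaged call without scramble replicate 1 (-1.19) or shKDM3B+ATRA replicate 1 (-1.07). With ATRA 0 of 4 tested were called in the knockdown (6.79% of all genes tested), and 0 by DESeq2, with 0 at an unadjusted P under 0.05, while TNFRSF10C was called lower without scramble+ATRA replicate 2 (-1.81). The fall of TNFRSF21 in scramble cells was -2.004 without scramble+ATRA replicate 1 and -1.76 without replicate 2.

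Of 19 adaptors and regulators of the receptor complexes, 18 were tested for the response to ATRA in each population, where 4 were called higher (CASP10, MLKL, CYLD and BIRC2) and 2 lower (PEA15 and TNFAIP3). These 6 of 18 stand beside 25.9% of all genes tested in scramble and 42.2% in shKDM3B cells. CASP10, the initiator protease closest to CASP8, rose from 11.4 and 14.9 CPM to 25.0 and 31.6 CPM in scramble cells (log2 1.14 ± 0.27) and reached 30.9 and 31.8 CPM in shKDM3B cells (1.24 ± 0.16). The executioner of necroptosis MLKL (1.16 and 1.00), the deubiquitinase CYLD (1.05 and 0.89) and the ubiquitin ligase BIRC2, or cIAP1 (0.87 and 1.17), were higher in scramble and shKDM3B cells respectively. PEA15, an inhibitor that binds FADD and CASP8, fell from 86.1 and 81.5 CPM to 38.9 and 35.9 CPM in scramble cells (-1.13 ± 0.21, adjusted p = 0.0130) and to 16.7 and 22.9 CPM in shKDM3B cells (-1.49 ± 0.21). TNFAIP3 (A20), a brake on NF-κB signalling from TNF receptors, fell by log2 values of -1.11 and -1.71. In scramble cells the calls of CASP10 and BIRC2 were lost without scramble replicate 1 (0.93) and replicate 2 (0.64), and that of TNFAIP3 without either of them (-1.09 and -1.18). RIPK3, the kinase that activates MLKL, had at most 3 counts in any library.

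In the knockdown, 1 of 18 of these regulators was called without ATRA, beside 7.01% of all genes tested, TNFAIP3, higher at 23.3 and 23.0 CPM against 15.7 and 14.6 CPM (0.61 ± 0.19, adjusted p = 0.287). With ATRA 1 of 17 was called, beside 6.79%, PEA15, lower in shKDM3B+ATRA cells (-0.91 ± 0.24, adjusted p = 0.502). PEA15 was also below scramble without ATRA, at 48.9 and 66.7 CPM (-0.53 ± 0.18, adjusted p = 0.352), which was under 1.5-fold. It was called lower in the averaged contrast (-0.72 ± 0.15, adjusted p = 0.0811). There DESeq2 gave it an adjusted p of 0.00166, with 8.1% of genes under 0.05. The call of TNFAIP3 was lost without scramble replicate 2 (0.56) or shKDM3B replicate 2 (0.61), and that of PEA15 with ATRA without shKDM3B+ATRA replicate 1 (-0.70), but kept without scramble+ATRA replicate 1 (-0.84) or replicate 2 (-0.97). PEA15 was called without ATRA when shKDM3B replicate 2 was left out (-0.79). With ATRA RNF31 was called higher without scramble+ATRA replicate 1 (0.65) and lower without replicate 2 (-0.77), and TRADD lower without replicate 1 (-0.71).

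Downstream of the receptors, 3 of 15 executioners and inhibitors of apoptosis were called higher with ATRA in scramble cells and 5 of 15 in shKDM3B cells, with 0 lower, beside 25.9% and 42.2% of all genes tested called in either direction. In scramble cells PARP1 was called lower without scramble+ATRA replicate 1 (-0.78) and HTRA2 without replicate 2 (-0.59), and in shKDM3B cells PARP1 without shKDM3B replicate 1 (-0.62). CASP9 and APAF1, which form the apoptosome, and the mitochondrial pore former BAK1 rose by log2 values of 1.31, 0.76 and 1.24 in scramble cells and 0.95, 0.60 and 1.01 in shKDM3B cells. In shKDM3B cells the caspase inhibitor XIAP (0.62) and cytochrome c, CYCS (0.61), were called as well, which does not show that they differed between the populations. In the knockdown 0 of 15 were called without ATRA (7.01% of all genes tested), with 0 at an unadjusted P under 0.05 and 0 by DESeq2, and 1 of 15 with ATRA (6.79%), the pore former BAX (-0.71 ± 0.17, adjusted p = 0.502), which was lost without shKDM3B+ATRA replicate 1 (-0.55) and kept without scramble+ATRA replicate 1 (-0.67) or replicate 2 (-0.74). Without scramble+ATRA replicate 2, CASP9 (-0.67) and HTRA2 (1.08) were called with ATRA as well. Without ATRA, APAF1 (0.66) was called without scramble replicate 2, CYCS (-0.71) without shKDM3B replicate 1 and BAX (-0.66) without shKDM3B replicate 2. The ATRA call of APAF1 in scramble cells was lost without scramble replicate 1 (0.42). In shKDM3B cells those of APAF1, XIAP and CYCS were lost without shKDM3B replicate 2 (0.49, 0.48 and 0.23) or shKDM3B+ATRA replicate 1 (0.56, 0.58 and 0.57).

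**Figure D4:**
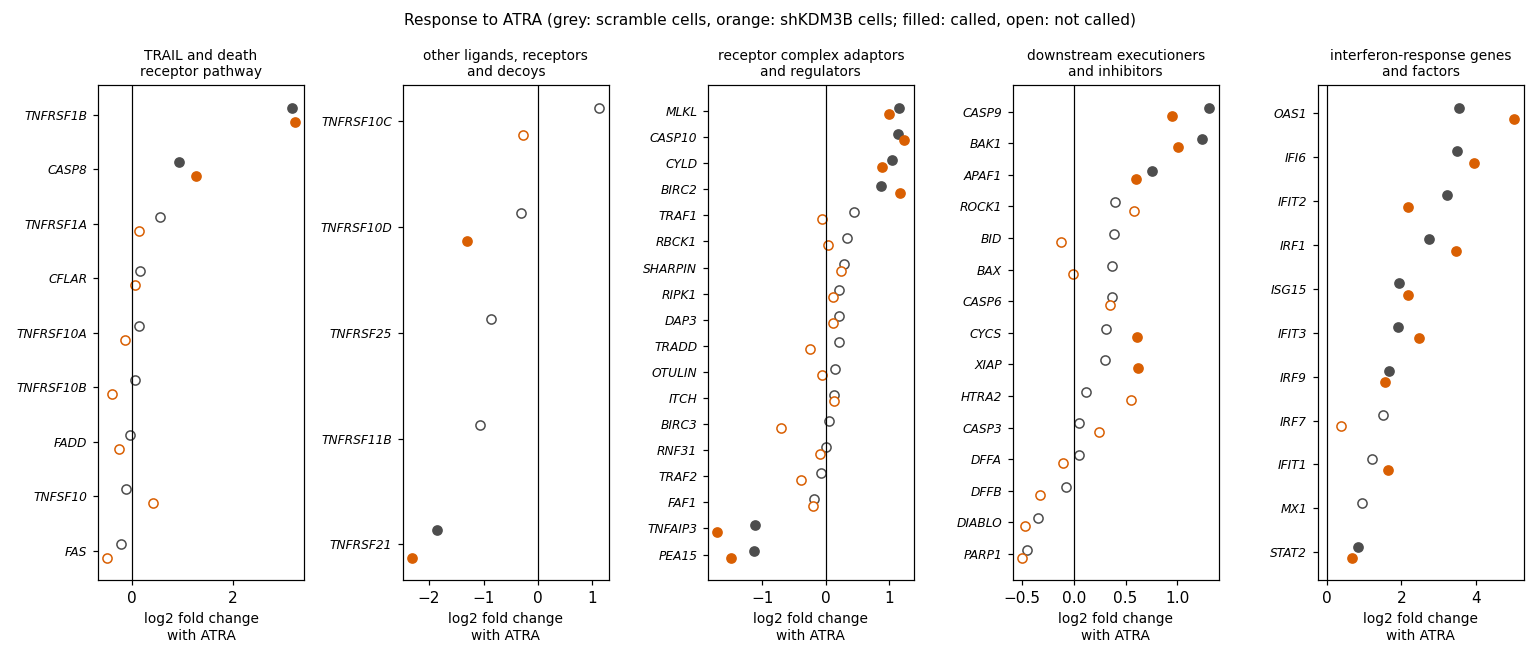
Log2 fold change with ATRA for the 9 genes and the other lists of the pathway, in scramble cells (grey) and shKDM3B cells (orange), with filled points for called genes. Genes are ordered by their value in scramble cells, and an interferon-response gene reaches the highest value, 5.03 for OAS1 in shKDM3B cells, while TNFSF10 lies at -0.12 and 0.41.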

How the data were processed

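Counts per gene name of 8 RNA-seq libraries of NB4 cells were used. Per the study's methods and the submitters' processing notes, the authors trimmed reads, aligned them to hg38 with HISAT2 and deposited raw HTSeq counts, and versions and the strand setting are not given in the sources used here. Lines for pairs outside genes (8.49 to 51.4%) or ambiguous between genes were kept out of library sizes. The deposited files list 56470 names for untreated and 56609 for treated libraries, and names listed for all libraries of a fit were used.

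Each pair of conditions was fitted with edgeR 4.0.16 (R 4.3.3), by its quasi-likelihood F test after filterByExpr and TMM scaling. The averaged knockdown effect and the difference between ATRA responses used all 8 libraries. Standard errors are the log2 fold change divided by the square root of F, and P-values were adjusted by the Benjamini-Hochberg method over all genes tested. With 2 against 2 libraries no exact permutation test falls below 0.333. Alternatives were DESeq2 1.42.0, other scalings and filters, a replicate block, all 8 libraries in one fit and leaving out each library, which refits the rest with a lone library assumed to vary like the others. Fits were tested on simulated data. Positions and lengths come from GENCODE 44.

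The 9 genes and the gene lists were chosen with earlier results of these data known, and some genes were left out of the lists and are not reported here. Of the lists, called genes are named, at most the 5 largest rises and 5 largest falls per list and comparison. Floors cover counting error alone, as molecular identifiers were not used.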

Additional observations from a re-analysis of the deposited data

Results flagged for a closer look

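TNFRSF10D, a TRAIL decoy receptor on chromosome 8, was the gene of the pathway lists whose response to ATRA was called different between the populations, by edgeR's test of the interaction over all 8 libraries. It was at 13.6 and 15.4 CPM in scramble, 18.2 and 21.8 in shKDM3B, 11.3 and 11.3 in scramble+ATRA and 8.11 and 7.64 CPM in shKDM3B+ATRA cells. On the log2 scale, the response of shKDM3B cells less the response of scramble cells was -0.99 ± 0.29 (adjusted p = 1.00), so the difference did not pass the correction over all genes tested. DESeq2 also called it, and with edgeR the call was lost without shKDM3B replicate 2 (-0.80). Groups of 2 libraries were too small for a test of single libraries that stand apart.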

How the results depend on the processing

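Of 387 log2 fold changes of the 9 genes under the alternatives that keep every library, 375 kept their direction and their side of the call, 4 lost a call, 1 gained one and 7 changed sign. In shKDM3B+ATRA against scramble+ATRA, 2 of the 9 genes were called, against 1 without the low-count filter, 1 with DESeq2 and 0 with a replicate block (TNFSF10 1.29, TNFRSF1B -0.89). The numbers of the replicates were not shown to pair the libraries (correlations of deviations over 11690 genes 0.447 for scramble with shKDM3B, 0.043 with ATRA, -0.102 and 0.223 across ATRA), and the replicate block changed no other call of the 9 genes. In untreated cells the block gave TNFSF10 and TNFRSF10B adjusted p-values of 0.0280 and 0.0014, and over all genes 525 calls in place of 969 with ATRA. With the numbers crossed in scramble cells, chosen after seeing the data, the response to ATRA gave 1886 higher and 1489 lower calls, and names listed for all 8 libraries, also chosen then, changed no call of the 9 genes. The gained call was TNFRSF1B (-0.93) without ATRA in one fit of all 8 libraries. The interaction gave 941 calls without the filter in place of 540, and library size alone moved its split from 172 higher and 368 lower to 234 and 279. Genes called at an adjusted p under 0.05 without ATRA numbered 3, but 566 without the filter, 283 with DESeq2 and 1277 with the block. Signs changed near 0 for FAS without ATRA (-0.0014) and TNFRSF10B with ATRA in scramble cells (-0.035), both with library size alone, and for averaged TNFRSF10A (0.0016 with DESeq2 size factors, 0.012 with library size alone, 0.016 without the filter, 0.0010 with the other filter and 0.0017 with DESeq2). Of 36 mean levels, 4 moved by more than their SD with library size alone, TNFRSF10B (48.5), FAS (6.53) and FADD (46.3 CPM) in scramble+ATRA and CFLAR in scramble (75.6 CPM), by at most 2.95%. The cause was not tested.

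Leaving out each library in turn gave 0 to 3 calls of the 9 genes for the knockdown (6.49 to 11.6% of all genes tested), 0 to 2 with ATRA (0.889 to 36.4%), 1 to 3 for ATRA in scramble cells (11.1 to 38.4%) and 0 to 1 for the interaction (2.04 to 17.4%). Fold changes that changed sign ranged, without ATRA, from -0.065 to 0.32 for TNFRSF10A, -0.11 to 0.16 for FAS and -0.034 to 0.48 for TNFRSF1A. With ATRA the knockdown values ranged from -0.28 to 0.019 for TNFRSF10A, -0.56 to 0.012 for FAS, -0.082 to 0.17 for CFLAR and -0.22 to 0.035 for CASP8. The ATRA responses in scramble cells ranged from -0.62 to 0.24 for TNFSF10, -0.0032 to 0.26 for TNFRSF10A and -0.028 to 0.11 for TNFRSF10B, and in shKDM3B cells from -0.35 to 0.076 for TNFRSF10A, -0.053 to 0.16 for CFLAR and -0.12 to 0.40 for TNFRSF1A. Averaged values ranged from -0.11 to 0.10 for TNFRSF10A, -0.27 to 0.0052 for FAS and -0.12 to 0.14 for TNFRSF1A, and interaction values from -0.24 to 0.026 for CFLAR, -0.0086 to 0.55 for CASP8 and -0.14 to 0.18 for TNFRSF1B. Depth limits TNFRSF1B most, with 10 to 20 counts in untreated libraries.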

Other observations

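By the smallest root mean square difference of centred log2 CPM over the 8 libraries, the genes whose pattern was most like that of TNFSF10 among 13527 genes were ATL3 (0.178), UGCG (0.185), ZRANB3 (0.185), ZDHHC2 (0.190) and TMEM99 (0.203), where the median over all genes was 0.707. Those most like CASP8 were UPF3A (0.116), RELT (0.132), KAT2B (0.137), SP100 (0.151) and ARHGAP27P1-BPTFP1-KPNA2P3 (0.157), where the median was 0.714. The values of all genes come from the same 8 libraries, with the depth and treatment of each, so these are descriptions of likeness alone. RELT is itself a receptor of the TNF receptor family.

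The B cell marker CD79A rose with ATRA, as did TNFRSF1B. Its level went from 3.21 and 3.06 CPM in scramble to 16.4 and 16.1 CPM in scramble+ATRA cells, and from 1.28 and 2.33 CPM in shKDM3B to 6.95 and 8.24 CPM in shKDM3B+ATRA cells, while MS4A1 stayed under 1 CPM in every library. Its part in the TNFRSF1B result was not tested.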
